A study of Mus musculus with 168 samples.

Results

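The 10 genes described here carry out the steps by which a cell shows fragments of its own proteins on MHC class I molecules: the light chain B2m, the classical heavy chains H2-D1 and H2-K1, the peptide transporter subunits Tap1 and Tap2, the loading factors Tapbp and Calr, and the immunoproteasome subunits Psmb8, Psmb9 and Psmb10. They were chosen by name, for their place in the pathway, from 43309 gene identifiers, and all 10 were listed in the tables and matched by symbol. None was left out for low values. Single cells of old male C57BL/6 mice had been picked by hand after sorting and sequenced with the Smart-seq2 protocol, which amplifies full-length cDNA from polyadenylated RNA. There were 133 cells of the subventricular zone (SVZ), the neurogenic niche along the lateral ventricle, all aged 23 months by label and sorted as GLAST+ CD133+ CD45- O4-. They came as 2 series named ogp (68 cells) and ogp2 (65 cells), and their label calls them old neural stem cells. A further 13 cells of the striatum (dissected without the SVZ) and 4 of the somatosensory cortex were labelled old astrocytes of 25 months and sorted as GLAST+ CD45- O4-. The striatal cells carry the names OGStr (11 cells) and OStr (2 cells). The protocol text gives 22 months for the SVZ mice where the label gives 23. Tissue of 3 to 4 mice was pooled and no cell is tied to an animal, so each tissue is 1 sample. No test between tissues was possible, and spreads below are spreads between cells. Age, sorting gate and tissue differ together and cannot be told apart. The 18 population libraries of the series were not analysed here.

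Class I molecules consist of a heavy chain and beta-2-microglobulin, and they fold around a short peptide in the endoplasmic reticulum. The peptide is cut from cytosolic protein by the proteasome, in which the interferon-inducible subunits encoded by Psmb8, Psmb9 and Psmb10 can replace the constitutive subunits encoded by Psmb5, Psmb6 and Psmb7. The TAP transporter, a pair of Tap1 and Tap2, then moves the peptide into the endoplasmic reticulum, where tapasin (Tapbp) and calreticulin (Calr) hold the empty heavy chain until it is loaded. Most cells of the body make class I molecules, brain cells are known for making little of them, and interferons raise nearly the whole pathway.

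Of the 10 genes, 7 lie on chromosome 17 in the mouse MHC region (GRCm38, GENCODE M21). Tapbp spans 33915899 to 33929292 on the plus strand, H2-K1 33996017 to 34000347 on the minus strand and H2-D1 35262730 to 35267499 on the plus strand. Between the heavy chains, Psmb9 (34181987 to 34187764, minus strand), Tap1 (34187553 to 34197225, plus), Psmb8 (34197721 to 34201454, plus) and Tap2 (34203527 to 34216321, plus) follow each other directly. B2m lies on chromosome 2 (122147686 to 122153083, plus). Calr (84841850 to 84846934, minus) and Psmb10 (105935735 to 105938444, minus) lie on chromosome 8. Psmb9 and Tap1 point away from each other and overlap by 212 bases. The counting is not stated to use strand, so reads in the overlap cannot be told apart.

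The bases before the RefSeq start of the class I light and heavy chains, and the stretch between the starts of Psmb9 and Tap1, are shown because these genes are compared for detection in the same cells further on. All are RefSeq sequence on GRCm38.p6, read 5′ to 3′ on the stated strand. Capitals mark matches, on either strand, to 4 motifs: a symmetric kB motif (spelled by the first run of capitals in the H2-K1 line), the core AANNGAAA of the interferon-response element, TGACG (the cyclic-AMP response core) and CCAAT.
H2-K1, chr17:34000348-34000597, minus strand: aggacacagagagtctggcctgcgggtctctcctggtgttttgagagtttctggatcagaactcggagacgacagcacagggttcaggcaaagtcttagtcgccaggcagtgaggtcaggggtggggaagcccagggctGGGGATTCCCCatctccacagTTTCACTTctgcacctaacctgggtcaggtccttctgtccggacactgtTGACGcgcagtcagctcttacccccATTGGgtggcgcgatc
H2-D1, chr17:35262844-35263093, plus strand: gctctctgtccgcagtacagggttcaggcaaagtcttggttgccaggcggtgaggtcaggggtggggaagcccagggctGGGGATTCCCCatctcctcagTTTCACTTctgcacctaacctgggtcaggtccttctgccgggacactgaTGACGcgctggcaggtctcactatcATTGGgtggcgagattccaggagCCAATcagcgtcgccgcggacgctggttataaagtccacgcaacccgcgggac
B2m, chr2:122147437-122147686, plus strand: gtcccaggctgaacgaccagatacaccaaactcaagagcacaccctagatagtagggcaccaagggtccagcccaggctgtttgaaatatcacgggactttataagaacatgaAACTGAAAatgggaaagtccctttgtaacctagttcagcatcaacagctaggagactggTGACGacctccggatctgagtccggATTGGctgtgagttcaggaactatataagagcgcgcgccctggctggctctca
Psmb9 to Tap1, chr17:34187331-34187555, plus strand: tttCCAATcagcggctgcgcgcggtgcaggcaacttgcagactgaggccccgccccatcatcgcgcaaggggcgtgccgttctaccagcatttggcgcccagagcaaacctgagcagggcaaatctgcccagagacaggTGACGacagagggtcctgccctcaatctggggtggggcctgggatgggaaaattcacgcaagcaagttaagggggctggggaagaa
The windows of H2-K1 and H2-D1 hold the same motifs in the same order and at the same distances from each other, kB, interferon core, TGACG and CCAAT, with a further CCAAT in H2-D1, and share a stretch of 47 identical bases. The B2m window holds the interferon core, TGACG and CCAAT, and the region between Psmb9 and Tap1 holds TGACG and CCAAT only. Among 32851 windows of 250 bases before a start, the kB motif occurred in 0.0304%, the interferon core in 21.3%, TGACG in 17.8% and CCAAT in 33.8%. Of the 9 members with an entry, 2 held the kB motif, 4 the interferon core, 5 TGACG and 7 CCAAT. A match is a description of the letters, not of a bound site.

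Values are transcripts per 1000000 (TPM), which are scaled for gene length and can be compared between genes. A gene is called detected in a cell at 1 TPM or more. Cells held a median of 3517 detected genes in the SVZ (1946 to 8046), 3662 in the striatum (2880 to 3968) and 3412 in the cortex (3051 to 3782). In 5 cells of the ogp series (ogp106, ogp107, ogp109, ogp110 and ogp111) the deposited values summed to only 66189 to 309864, against 999576 or more in all other cells. Every cell was therefore rescaled to a sum of 1000000, and results were computed with and without these 5 cells. Read depth is unknown, and genes that most cells use were also listed at 0, such as Psmb6 in 29 of 133 SVZ cells. A value of 0 therefore says only that the gene is listed at 0. The astrocyte and quiescent stem cell marker list summed to at least 1487 TPM in every SVZ cell, with a median of 75283, and to a median of 73627 in the striatum and 58055 in the cortex. These markers are common to quiescent stem cells and astrocytes and do not tell the labelled types apart. Single SVZ cells also held markers of other cell types, such as Olig1 at 5597 TPM in ogp22 and Pdgfra at 1177 and Sox10 at 399 TPM in cell 87 of ogp2, named after their values were seen.

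B2m and H2-K1 were the most widely detected members in the SVZ, and H2-D1 was detected in fewer cells than either. B2m ranged from 0 to 7622 TPM over the 133 cells with a median of 402, and averaged 644 ± 907 (SD between cells). It was detected in 108 cells (81.2%, exact 95% binomial interval 73.5 to 87.5). H2-K1 ranged from 0 to 2347 TPM with a median of 242, averaged 344 ± 393, and was detected in 81.95% of cells (74.4 to 88.1). H2-D1 ranged from 0 to 1632 TPM with a median of 56.5, averaged 167 ± 256, and was detected in 81 cells (60.9%, 52.1 to 69.2). Among cells with the gene, the median was 519 TPM for B2m, 334 for H2-K1 and 214 for H2-D1. The highest B2m value came from cell ogp106, one of the 5 cells with a low deposited sum, and the SVZ mean was 592 TPM without it. H2-D1 shares 12.8% of its 50-base transcript words with other genes and H2-K1 shares 9.63%, including each other and H2-Q genes. The assignment of reads between these paralogs is uncertain to that extent. Intervals here and below cover counting error over cells only.

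The transporter and its loading factors fell into an abundant and a rare pair. Calr, a general chaperone of the endoplasmic reticulum, averaged 200 ± 204 TPM in the SVZ (median 150, highest 868) and was detected in 103 cells (77.4%, 69.4 to 84.2). Tapbp averaged 123 ± 151 TPM (median 46.5, highest 629) in 80 cells (60.2%, 51.3 to 68.5). Tap2 averaged 31.3 ± 64.1 TPM (median 0, highest 295) in 37 cells (27.8%, 20.4 to 36.3). Tap1, the other subunit, averaged 27.2 ± 84.6 TPM (median 0, highest 663) in 19 cells (14.3%, 8.83 to 21.4). Where Tap1 was detected its median was 165 TPM, above the median of 110 for Tap2 in the cells that had it. Both transporter genes were below 1 TPM in most SVZ cells. Tapbp shares 20.3% of its transcript words with an antisense gene and Tap2 shares 9.22% with a non-coding gene on the other strand.

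Each immunoproteasome subunit was detected in a minority of SVZ cells. Psmb10 averaged 47.1 ± 98.7 TPM in the SVZ (median 0, highest 542) and was detected in 51 cells (38.3%, 30.1 to 47.2). Psmb8 averaged 32.8 ± 97.5 TPM (median 0, highest 597) in 18 cells (13.5%, 8.22 to 20.5). Psmb9 averaged 18.1 ± 84.2 TPM (median 0, highest 821) in 20 cells (15.04%, 9.43 to 22.3). A single cell, ogp41, held 34.04% of all Psmb9 in the SVZ, and the mean was 12.1 TPM without it. By SVZ mean the order was B2m, H2-K1, Calr, H2-D1, Tapbp, Psmb10, Psmb8, Tap2, Tap1 and Psmb9, and every neighbouring pair differed by less than the SD of either gene.

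**Figure D1:**
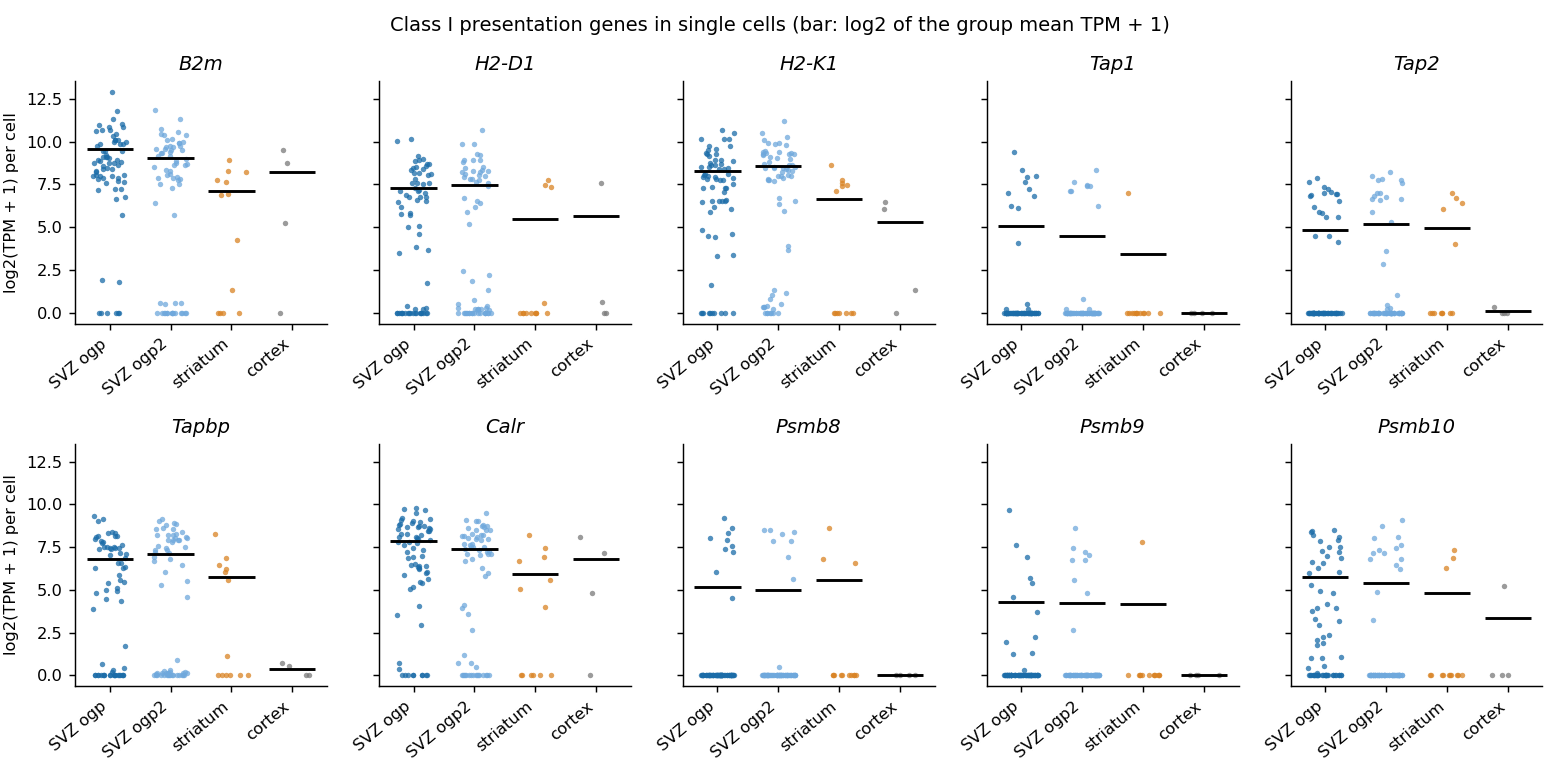
Level of each of the 10 genes in every cell, as log2(TPM + 1) on the y axis, with 1 point per cell for SVZ ogp (68 cells), SVZ ogp2 (65), striatum (13) and cortex (4). Black bars mark log2 of the group's mean TPM + 1. B2m, H2-K1 and Calr form a cloud of expressing cells in both SVZ series, while Tap1, Psmb8 and Psmb9 sit at 0 in most cells.

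In the striatum, B2m ranged from 0 to 491 TPM over the 13 cells with a median of 117 and averaged 136 ± 157. H2-K1 ranged from 0 to 399 TPM with a median of 0 and averaged 98.7 ± 126, and H2-D1 ranged from 0 to 219 TPM with a median of 0 and averaged 42.6 ± 81.7. Every striatal value of these 3 genes fell inside the SVZ range. Calr ranged from 0 to 299 TPM (median 14.7) and Tapbp from 0 to 305 TPM (median 1.16), each in 7 cells. Tap2 reached 128 TPM in 5 cells and Psmb10 163 TPM in 3. Psmb8 reached 389 TPM in 3 cells, 1 of which held 65.4% of it. Tap1 was at 128 TPM and Psmb9 at 223 TPM in 1 cell each, and all other striatal cells were listed at 0 for these 2 genes. The log2 difference from the SVZ, taken between means of TPM with 1 added, was -2.24 for B2m, -1.94 for H2-D1, -1.79 for H2-K1 and -1.71 for Calr. Tap1 (-1.37) and Tapbp (-1.19) also passed 2-fold. Tap2, at 30.3 TPM against 31.3, and Psmb9, at 17.2 against 18.1, were within 2-fold, as were Psmb10 (27.3 against 47.1 TPM) and Psmb8 (45.8 against 32.8). Psmb9 was detected in 1 striatal cell, of the OStr pair, and was listed at 0 in all 11 OGStr cells. With OGStr cells alone, 8 members passed 2-fold, Psmb9 and Psmb10 among them. That count has no share of all genes beside it, since the shares given next are for all 13 striatal cells. In all, 6 of 10 members were at least 2-fold lower and 0 at least 2-fold higher, beside 41.8% lower and 9.64% higher among 13713 genes at a mean of 1 TPM or more. The members' median log2 difference was -1.28, against -0.62 over all those genes.

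By detection, H2-K1 was present in 6 of 13 striatal cells (46.2%, exact interval 19.2 to 74.9) against 81.95% of SVZ cells, and H2-D1 in 3 of 13 (23.1%, 5.04 to 53.8) against 60.9%. B2m was present in 9 of 13 (69.2%, 38.6 to 90.9), an interval that includes its SVZ share. The intervals of H2-K1 and H2-D1 overlap those of the SVZ. Detected levels were lower as well, with a median of 199 TPM for B2m in the striatal cells that had it, against 519 in the SVZ. Tap2 and Psmb8 were not ordered this way: Tap2 was detected in 5 of 13 striatal cells (38.5%, 13.9 to 68.4) and Psmb8 in 3 (23.1%, 5.04 to 53.8). These intervals include the SVZ shares of 27.8% and 13.5%.

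The 4 cortical cells split by gene. B2m was listed at 0, 36.8, 422 and 715 TPM, Calr at 0, 140, 273 and 26.8 TPM, and H2-K1 at 1.47, 89.2, 0 and 65.1 TPM, in cells 1 to 4. H2-D1 reached 192 TPM in cell 3 and at most 0.55 TPM in the other cells, and Psmb10 was at 36.3 TPM in cell 1 and at 0 elsewhere. Tap1, Psmb8 and Psmb9 were listed at 0 in all 4 cells, Tap2 reached at most 0.27 TPM and Tapbp at most 0.67 TPM. With 0 of 4 cells the exact interval still reaches 60.2%, so differences from the SVZ shares of 27.8% for Tap2 and 14.3% for Tap1 were not detectable with this number of cells. The Tapbp share of 60.2% in the SVZ lay at the edge of that limit. At the level of means, 9 of 10 members were at least 2-fold lower in cortex than in SVZ and 0 higher, beside 59.4% lower and 13.7% higher among 13707 genes. Calr, at 110 against 200 TPM, was the exception, and passed 2-fold when mean levels were aligned by the median ratio of genes at 10 TPM or more, and 3 of the 9 were the genes listed at 0. The members' median log2 difference of -3.69 (-1.47 over all genes) rests on the pseudocount of 1 TPM and was -1.75 with a pseudocount of 10. It was -4.54 without cortical cell 1 or without cell 3.

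Set against the cortex, striatal means passed 2-fold upward for 7 of 10 members and downward for 1, B2m (136 against 293 TPM), beside 46.5% upward and 24.5% downward among 10570 genes. Of the 7, Tap1, Psmb8 and Psmb9 were listed at 0 in cortex, and Tap1 and Psmb9 came from 1 striatal cell each. The B2m call rests on cortical values from 0 to 715 TPM that enclose the striatal range, and it was lost under the same alignment of mean levels, or without any 1 of striatal cells 1, 4, 6, 7 and 13 or cortical cells 3 and 4. The log2 difference of B2m, -1.11 over all cells, was -0.17 without cortical cell 4. Without striatal cell 7 or cortical cell 4, Calr was the member that was lower, and without striatal cell 9 or cortical cell 1 both B2m and Calr were. The 3 tissue comparisons share their groups and are not independent of each other.

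**Figure D2:**
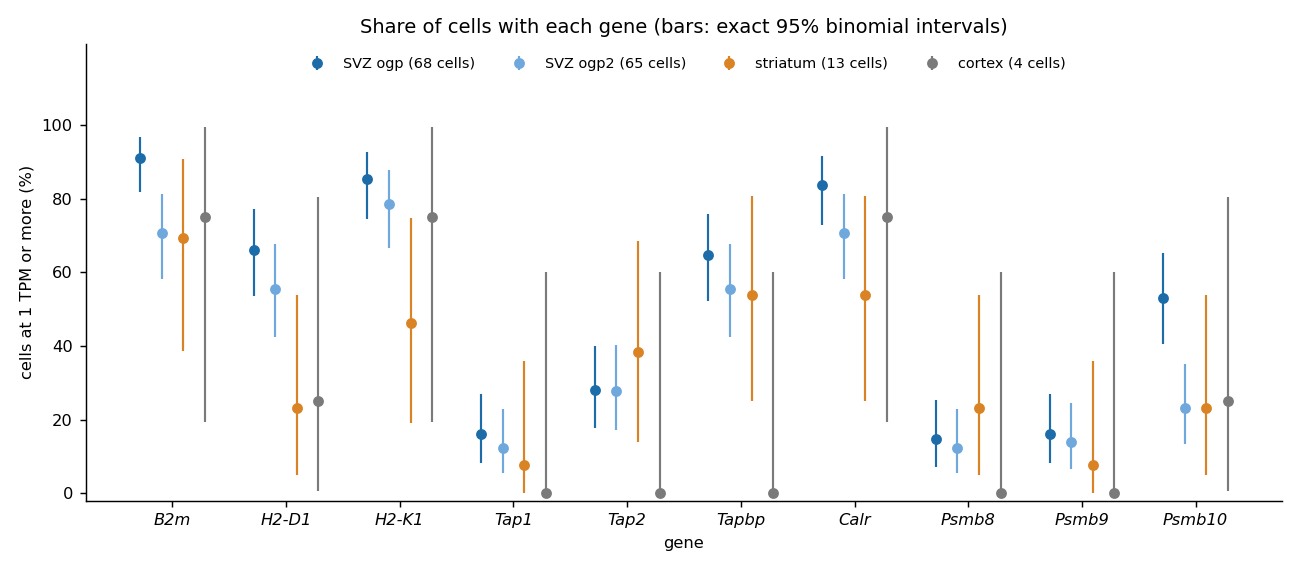
Share of cells with each gene at 1 TPM or more (y axis, percent) in the 4 groups, with exact 95% binomial intervals over cells. H2-K1 and H2-D1 are detected in a smaller share of striatal than of SVZ cells, and the intervals of the 4 cortical cells are wide, reaching 60.2% for genes found in none of them.

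Within the SVZ, B2m and Psmb10 were detected in more cells of the ogp than of the ogp2 series. No member differed 2-fold in mean between ogp and ogp2, where 19.1% of 13722 genes were higher and 9.87% lower in ogp. Without ogp41, 1 member, Psmb9, was lower in ogp. B2m was detected in 62 of 68 ogp cells (91.2%, exact interval 81.8 to 96.7) and in 46 of 65 ogp2 cells (70.8%, 58.2 to 81.4), with means of 759 and 525 TPM. Psmb10 was detected in 36 ogp cells (52.9%, 40.4 to 65.2) and 15 ogp2 cells (23.1%, 13.5 to 35.2), with means of 52.2 and 41.8 TPM. For these 2 of the 10 genes the intervals did not overlap, beside 3.42% of the 13722 genes with a larger share in ogp and 0.16% with a smaller one. Among cells that had Psmb10, its median was lower in ogp, at 49.4 TPM against 143 in ogp2. Several ogp cells lay just above the limit of 1 TPM for Psmb10, such as ogp68 at 1.01, ogp86 at 1.05 and ogp69 at 1.08 TPM. In ogp2 the lowest detected value was 8.33 TPM, in cell 46. The difference in Psmb10 detection therefore rests in part on that limit. Cells of the ogp series also had more detected genes, 3794 at the median against 3095, and its part in these shares was not tested.

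Within single SVZ cells a median of 5 of the 10 genes was detected, from 0 to 9. The count was 0 in 3 cells, 4 in 31 cells, 6 in 33 cells and 9 in 2 cells, and no cell had all 10 (exact upper limit 2.74%). At least 5 members were found in 73 of 133 SVZ cells (54.9%, 46.03 to 63.5), in 5 of 13 striatal cells (38.5%, 13.9 to 68.4) and in 0 of 4 cortical cells. The share was 64.7% in ogp and 44.6% in ogp2. The cells that had at least 5 members held a median of 3819 detected genes, more than the 3517 of all SVZ cells. Across the 133 cells, Spearman's rho between the number of members and the number of detected genes was 0.47, a description that shares the detection of both.

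The parts of the class I complex itself were often found together. B2m, H2-D1 and H2-K1 were all detected in 70 of 133 SVZ cells (52.6%, 43.8 to 61.3), in 1 of 13 striatal cells (7.69%, 0.195 to 36.03) and in no cortical cell. B2m with at least one heavy chain was found in 96 SVZ cells (72.2%, 63.7 to 79.6), a heavy chain without B2m in 17 (12.8%, 7.63 to 19.7), and none of the 3 in 8 (6.02%, 2.63 to 11.5). Of the 81 cells with H2-D1, 77 also had H2-K1 (95.1%, 87.8 to 98.6), against 32 of the 52 cells without H2-D1 (61.5%, 47.02 to 74.7). With any value above 0 counted as detected, these shares were 90.6% and 78.4%. Reads shared by these paralogs bear on that pair, and their part was not tested. Cells with B2m and both heavy chains held a median of 3794 detected genes, and cells with none of the 3 held 2800.5. The part of that number in co-detection was not tested. B2m, which shares no 50-base word with another gene, was found in 74 of the 81 cells with H2-D1 (91.4%) and in 34 of the 52 without (65.4%, 50.9 to 78.03). It was likewise found in 72 of the 80 cells with Tapbp and in 36 of the 53 without (67.9%, 53.7 to 80.1). Levels were weakly related: Spearman's rho over 133 cells was 0.25 between B2m and H2-D1, 0.15 between B2m and H2-K1 and 0.22 between the heavy chains.

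Complete machinery was rarely seen in one cell. Tap1 and Tap2, which work as a pair, were both detected in 4 of 133 SVZ cells (3.01%, 0.825 to 7.52), although either was present in 52 (39.1%, 30.8 to 47.9). Tap2 was found in 4 of the 19 cells with Tap1 (21.1%, 6.05 to 45.6) and in 33 of the 114 without (28.9%, 20.8 to 38.2). Each share lay inside the other's interval. A heavy chain, B2m, Tap1, Tap2 and Tapbp were all found in 3 cells (2.26%, 0.468 to 6.45). All 3 immunoproteasome subunits were found in 4 cells (3.01%, 0.825 to 7.52), and at least 1 of them in 67 (50.4%, 41.6 to 59.2). Psmb10 was present in 12 of the 18 cells with Psmb8 (66.7%, 40.99 to 86.7) and in 39 of the 115 without (33.9%, 25.3 to 43.3). The 2 cells with 9 members, ogp41 and cell 2 of ogp2, lacked only Tap2. They had 23 and 11 of the 27 interferon-stimulated genes counted further on.

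Tap1 and Psmb9, the neighbours whose starts lie on the same short stretch printed above, were detected together in 8 cells. Psmb9 was present in 8 of the 19 cells with Tap1 (42.1%, 20.3 to 66.5) and in 12 of the 114 without (10.5%, 5.56 to 17.7). In 5 of the 8 cells, however, Psmb9 was between 1.41 and 5.38 TPM, while in the 12 cells with Psmb9 alone it was between 12.2 and 196 TPM. With a detection limit of 10 TPM the shares became 15.8% and 10.5%, inside each other's intervals. The 3 cells left were ogp41 (Tap1 663 and Psmb9 821 TPM), cell 46 of ogp2 (327 and 390 TPM) and cell 2 of ogp2 (137 and 108 TPM). The transcripts share 163 words of 50 bases on opposite strands, 4.19% of those of Psmb9. Values from shared reads and from low expression cannot be told apart here.

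**Figure D3:**
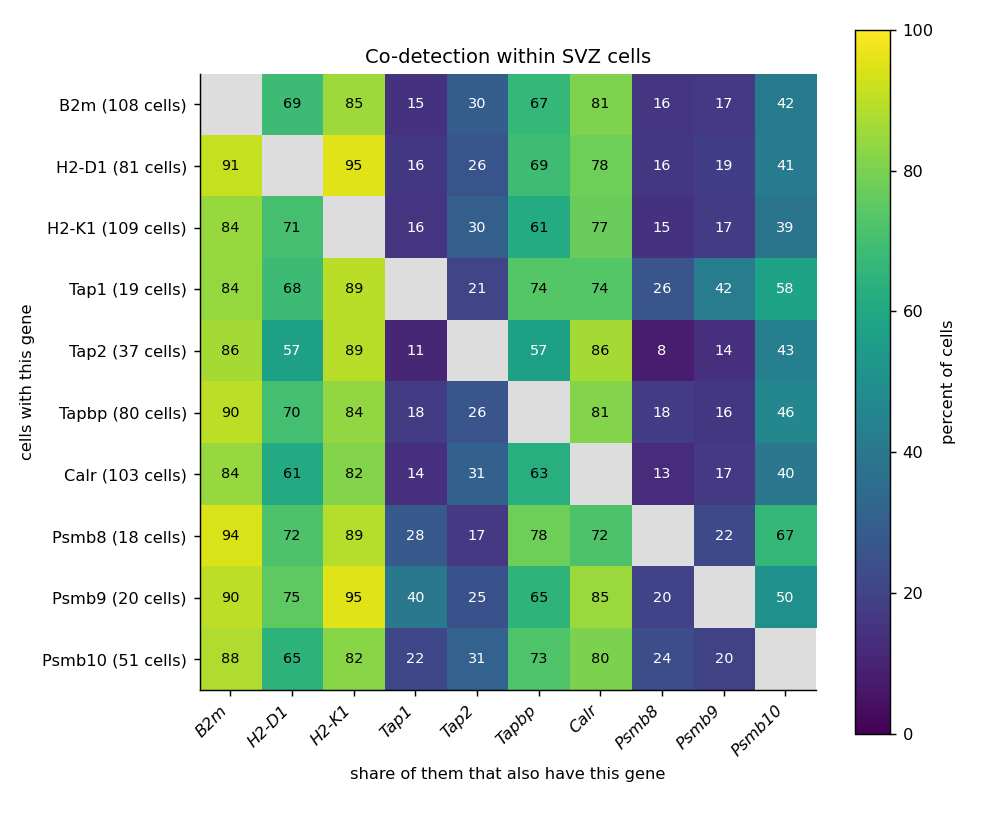
Co-detection within the 133 SVZ cells: each row takes the cells that have the named gene at 1 TPM or more, and each box gives the percent of them that also have the gene of the column (colour scale 0 to 100%). Among B2m, H2-D1, H2-K1, Tapbp and Calr every share is 61.2% or more, and the share of Tap1 cells that also have Tap2 is 21.1%.

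Immunoproteasome transcripts stayed below those of the subunits they replace. In SVZ cells Psmb8 averaged 32.8 TPM beside 245 for Psmb5, 11.8% of the sum of the 2 means. Psmb9 averaged 18.1 TPM beside 459 for Psmb6 (3.80%), and Psmb10 47.1 TPM beside 180 for Psmb7 (20.8%). Single cells departed from this. Psmb10 exceeded Psmb7 in 24 SVZ cells, Psmb8 exceeded Psmb5 in 11 and Psmb9 exceeded Psmb6 in 5. In the striatum the shares were 15.3%, 6.93% and 15.5%, the second of them from 1 OStr cell. In the cortex Psmb8 and Psmb9 were listed at 0 beside Psmb5 at 353 and Psmb6 at 383 TPM, and the Psmb10 share was 3.17%. Without cell ogp41 the SVZ shares were 10.4%, 2.59% and 19.8%.

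SVZ cells were also placed by the share of their TPM in 80 ribosomal protein genes, which in this lineage is known to increase as stem cells leave quiescence. There were 21 cells at 6% or more, 11 from 3% to 6% and the rest of the 133 below 3%, and 14 cells lay within 0.5 percentage points of a limit. These are ranges of a score and not cell types, and the median number of detected genes was 3250 in the lowest, 4216 in the middle and 6326 in the highest. Between the outer ranges, 5 of 10 members had means at least 2-fold lower in ribosome-rich cells and 0 at least 2-fold higher, beside 28.6% lower and 22.3% higher among 13559 genes. They were Psmb8 (7.96 against 37.02 TPM), Tapbp (43.4 against 142), Tap1 (10.3 against 33.6), Tap2 (15.4 against 34.97) and Psmb9 (9.55 against 21.9). Calr was at 106.99 against 207 TPM, H2-K1 at 247 against 378, B2m at 522 against 639, H2-D1 at 143 against 179 and Psmb10 at 38.3 against 45.9, all within 2-fold. The members' median log2 difference was -1.03, against -0.08 over all genes.

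The 5 genes with lower means were detected in shares of cells whose intervals overlapped. The share was 9.52% of ribosome-rich (1.17 to 30.4) and 13.9% of ribosome-poor cells (7.79 to 22.2) for Psmb8, 57.1% (34.02 to 78.2) and 60.4% (50.2 to 69.99) for Tapbp, and 14.3% (3.05 to 36.3) and 15.8% (9.33 to 24.4) for Tap1. For Tap2 it was 28.6% (11.3 to 52.2) and 26.7% (18.4 to 36.5), and for Psmb9 28.6% and 13.9%. B2m and H2-D1 were detected in a larger share of ribosome-rich cells. The share was 95.2% (76.2 to 99.9) against 77.2% (67.8 to 84.98) for B2m and 85.7% (63.7 to 96.95) against 57.4% (47.2 to 67.2) for H2-D1, with overlapping intervals. H2-K1, Calr and Psmb10 were also detected in a larger share of them. Ribosome-rich cells held more detected genes, and the part of that in these shares was not tested. No share over all genes is given beside them. Spearman's rho of level with the ribosomal percent was 0.13 for B2m and 0.13 for H2-D1 over 133 cells. For H2-K1, the other heavy chain, rho was -0.17, with -0.33 in ogp and -0.001 in ogp2. Averaging log values per cell, which gives detection more weight, gave a median difference of -0.20, with 2 members past 2-fold upward and 1 downward, and Psmb9 changed sign, to 0.66. Within ogp the median was -1.37 with 7 members lower, and within ogp2 it was -0.43 with 2 lower, over only 6 ribosome-rich cells. One of these, cell 39, held 76.5% of the H2-K1 of that range in its series. The counts by averaged logs and within each series have no share over all genes beside them. The constitutive subunits had higher means in ribosome-rich cells: Psmb5 averaged 319 TPM in ribosome-rich and 220 in ribosome-poor cells, Psmb6 680 and 399, and Psmb7 274 and 154. Over both series the immunoproteasome share of each pair was lower in ribosome-rich cells, at 2.44% against 14.4% for Psmb8, 1.39% against 5.20% for Psmb9 and 12.3% against 22.96% for Psmb10. Within ogp2 the Psmb10 share was not lower, at 20.997% over the 6 ribosome-rich and 19.1% over the ribosome-poor cells.

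**Figure D4:**
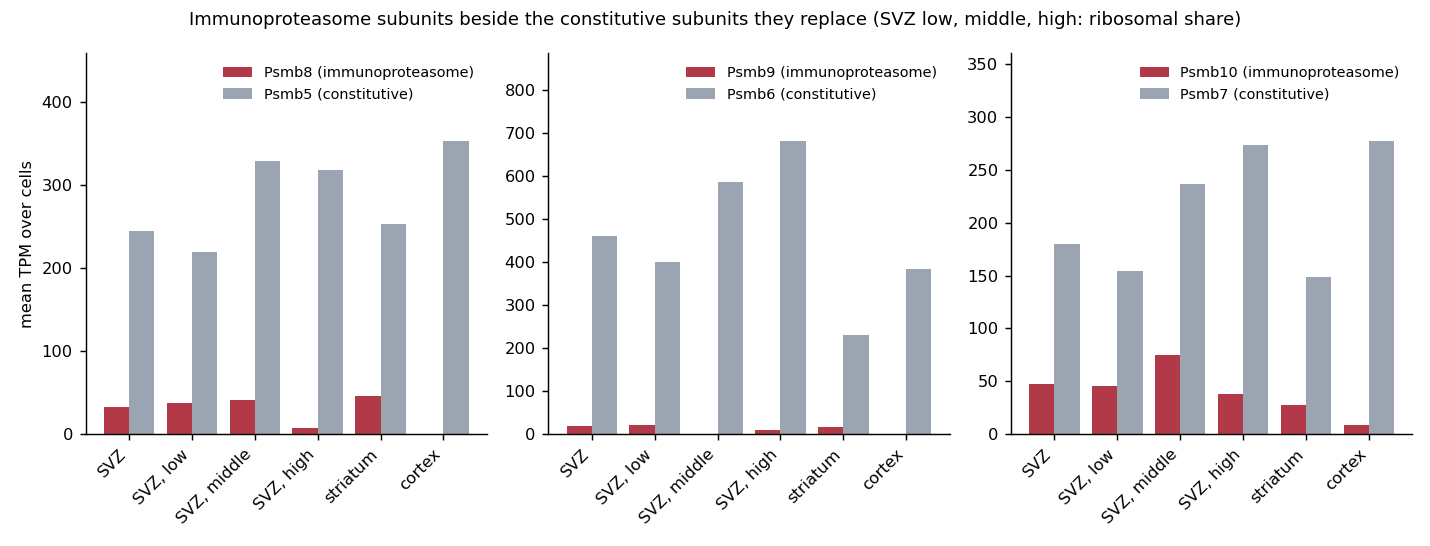
Mean TPM over cells (y axis) of each immunoproteasome subunit (red) and the constitutive subunit it replaces (grey) in all SVZ cells, in SVZ cells with a ribosomal share below 3% (low), from 3% to 6% (middle) and from 6% (high), in striatum and in cortex. In every group the constitutive subunit is the higher bar, and Psmb8 and Psmb9 have no bar in the cortex.

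The members were then set beside 27 other interferon-stimulated genes, counted per SVZ cell as detected or not. The ranges of this count were chosen after the data had been seen, and 6 cells lay at 9 or 10, next to the upper limit. B2m averaged 337 TPM in the 50 cells with 0 to 2 of these genes, 594 in the 51 cells with 3 to 5, 640 in the 18 cells with 6 to 9 and 1931 in the 14 cells with 10 or more. It was detected in 34 of the 50, 43 of the 51, 17 of the 18 and 14 of the 14 cells. H2-D1 averaged 130, 161, 169 and 315 TPM and was detected in 22, 32, 15 and 12 of them. H2-K1 was similar in the first 3 ranges and higher in the last, at 314, 294, 307 and 685 TPM. Psmb8 averaged 12.8, 27.5, 67.01 and 79.6 TPM and Psmb10 37.1, 41.8, 50.0 and 98.8 TPM. Tap1 (25.1, 16.7, 13.6 and 90.1 TPM) and Psmb9 (15.6, 3.09, 6.41 and 97.3 TPM) had their highest means in the last range. A single cell, ogp41, carried much of these last means, which without it were 39.8 TPM for Psmb8, below the range before it, 46.01 for Tap1 and 41.5 for Psmb9. Cell 46 of ogp2, with Tap1 at 327 and Psmb9 at 390 TPM, had 0 of the 27 genes. Calr did not follow, at 212, 207, 192 and 144 TPM, nor did Tapbp, at 107.2, 135, 123 and 137 TPM. Tap2 averaged 20.8, 37.5, 35.2 and 41.1 TPM. In the last range the SD between cells was 1997 TPM for B2m and 633 TPM for H2-K1, and B2m ran from 50.96 to 7622 TPM, overlapping the other ranges.

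From the lowest to the highest range, 7 of 10 members had means at least 2-fold higher (B2m, H2-D1, H2-K1, Tap1, Psmb8, Psmb9 and Psmb10) and 0 at least 2-fold lower, beside 18.6% higher and 25.9% lower among 13362 genes. The median log2 difference was 1.33 over the members and -0.08 over all genes. The transporter genes did not rise in both series. In ogp2, Tap1 averaged 30.8 TPM in the lowest and 17.2 in the highest range, and Tap2 26.6 and 8.57. In ogp, Tap1 averaged 17.9 and 187 TPM, and Tap2 13.5 and 84.5. The highest range held 6 ogp and 8 ogp2 cells. B2m, H2-D1, H2-K1, Psmb8, Psmb9 and Psmb10 had higher means there in both series. Cells in the highest range had more detected genes, a median of 4054 against 3173. Among cells with at least 3000 and under 5000 detected genes, 8 in the highest and 25 in the lowest range, 7 members were at least 2-fold higher and the median was 2.10. The share over all genes was not taken for these cells, nor for the left-out cells below. The 8 cells include both ogp41 and ogp106. The part of the number of detected genes was not tested. Single cells carried part of the difference. Without ogp106 the counts were 5 higher and 1 lower (Calr), with H2-D1 at 0.95 and H2-K1 at 0.99 on the log2 scale. Without ogp41, 7 were higher with Tap2 (1.05) in place of Tap1 (0.85). That cell had 23 of the 27 genes and the highest Tap1, Psmb8 and Psmb9 of all cells, with B2m at 3490 TPM and H2-K1 at 1157. The cell with most of these genes, cell 43 of ogp2 with 26, had 8 members detected. It held B2m at 810 TPM, H2-D1 at 241, Psmb8 at 49.1, Psmb9 at 45.99 and Psmb10 at 72.96, above their SVZ means. H2-K1 at 92.3 TPM, Tapbp at 37.75, Calr at 178, Tap1 at 0.76 and Tap2 at 0 were below theirs. The highest count therefore did not come with high levels of every member. Over the 133 cells Spearman's rho with this count was 0.44 for B2m, 0.27 for Psmb8, 0.21 for H2-D1, 0.11 for H2-K1 and -0.03 for Calr.

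**Figure D5:**
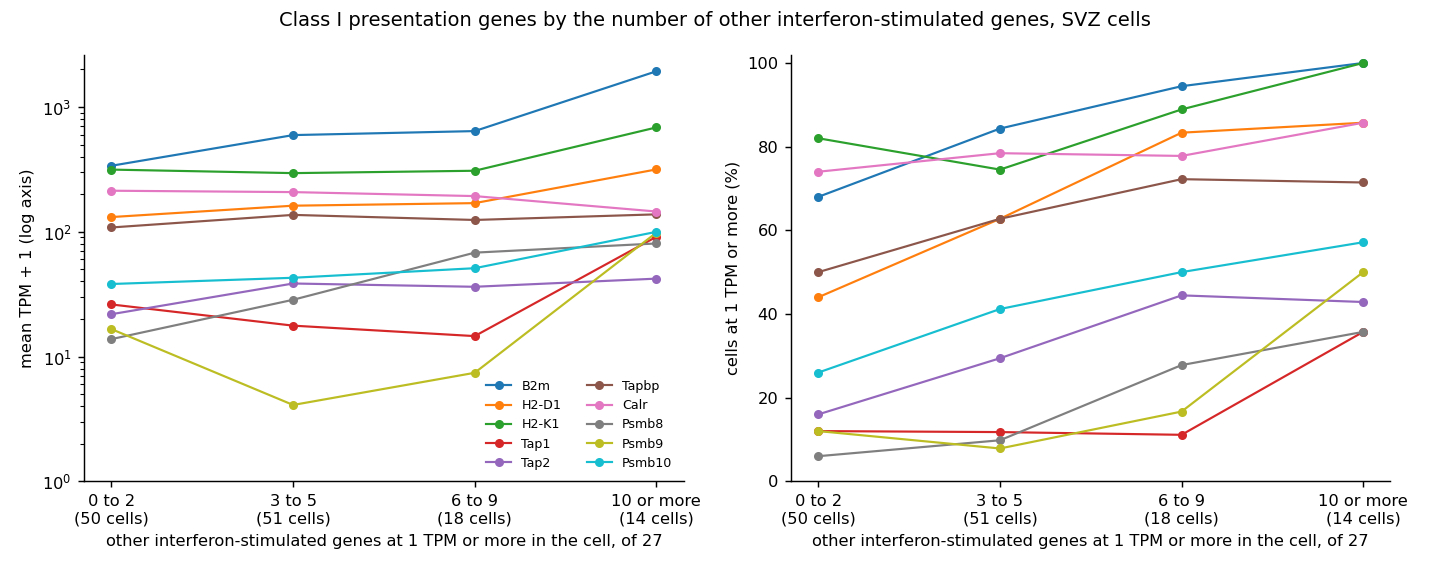
Mean TPM + 1 on a log axis (left) and percent of cells at 1 TPM or more (right) for the 10 genes in SVZ cells with 0 to 2, 3 to 5, 6 to 9 and 10 or more of 27 other interferon-stimulated genes (50, 51, 18 and 14 cells). B2m goes from 337 to 1931 TPM along the axis, and Calr from 212 to 144.

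Of the other genes of the pathway, the general chaperones were as abundant as the better detected members. Of 12 further class I and assembly genes, all were detected in at least 1 cell and 8 in at least 20% of SVZ cells. The disulfide isomerase Pdia3, which joins calreticulin in peptide loading, averaged 361 ± 286 TPM in the SVZ in 118 cells, the chaperone Hspa5 273 ± 300.3, calnexin (Canx) 214 ± 206 in 117 and the tapasin-related Tapbpl 27.001 ± 67.1 in 117. Against the SVZ, 6 of the 12 were 2-fold lower and 1 was 2-fold higher in striatum, and 7 and 0 were in cortex, near the 41.8% and 59.4% of all genes that were lower. The proteasome activator subunits Psme1 and Psme2 averaged 146 and 139 TPM in the SVZ, more than any immunoproteasome subunit. Of 27 other interferon-stimulated genes, 20 were at least 2-fold lower in striatum and 25 in cortex than in SVZ, and 0 were higher in either, beside the same shares of all genes. The most abundant, Ifi27, averaged 528 ± 689 TPM in 97 SVZ cells, 304 ± 312 in the striatum and 106.9 ± 144 in the cortex. Ifit3 averaged 128 ± 617 TPM in 39 SVZ cells and 38.3 ± 93.98 in the striatum.

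Of 17 regulators of class I transcription, 4 were 2-fold lower and 3 were 2-fold higher in striatum than in SVZ, and 12 and 2 were in cortex, beside 41.8% of all genes lower in striatum and 59.4% in cortex. The share of the list was under that of all genes in striatum and somewhat above it in cortex. Irf1, an interferon-induced transcription factor, averaged 42.9 ± 118 TPM in the SVZ and 41.8 ± 95.1 in the striatum and was listed at 0 in cortex. The interferon receptor genes were similar in both larger groups, Ifngr1 at 97.1 ± 160.3 and 120 ± 105.7 TPM and Ifnar2 at 81.8 ± 169 and 76.3 ± 133. Nlrc5, the class I transactivator, was singled out after its values were seen and was detected in 5 of 133 SVZ cells and 0 of the 17 striatal and cortical cells. Class II presentation genes were rarely detected: 2 of 7 were detected in any cell, and H2-Ab1, H2-Aa, Cd74 and Ciita, singled out after their values were seen, were listed at 0 in all 150 cells.

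Markers of cells known for high class I levels were followed beside these values. Of 18 microglia and leukocyte markers, 7 were detected in any SVZ cell, and Ptprc, Itgam, Cx3cr1 and Tmem119 were below 1 TPM in every cell. The list summed to 0 to 4758 TPM per SVZ cell with a median of 0, to 0 to 238 in the striatum and 0 to 237 in the cortex. The top value was that of cell ogp38, with C1qb at 3762, C1qa at 598 and Csf1r at 391 TPM. That cell had 2 of the 27 interferon-stimulated genes. Without it 6 members were still lower in striatum and 9 in cortex, while 8 in place of 7 were higher at high interferon counts. P2ry12 was detected in 13 SVZ cells. Of 12 endothelial markers, 3 were detected in any SVZ cell, with a highest sum of 166 TPM. Pecam1 was detected in 88 SVZ cells at no more than 9.77 TPM, Egfl7 in 5 at up to 137 TPM and Cldn5 in 1, while Flt1, Cdh5, Tek and Kdr were listed at 0 throughout. Sums were also taken for oligodendrocyte lineage (0 to 7308 TPM per SVZ cell), ependymal (0 to 2255), mural (0 to 296), neuronal (0 to 1205) and dividing-cell markers (0 to 13935). Their part in the members' levels was not tested.

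The genes whose levels most resembled those of the abundant members were ranked by the lower of the Spearman coefficients in ogp (68 cells) and ogp2 (65 cells), over 5154 genes detected in at least 20% of the cells of each series. They were Srsf1 (0.27), Capns1 (0.24) and Camk2d (0.24) for B2m, Dgcr6, Gprasp1 and Ift81 (all 0.33) for H2-D1, and Cep112it (0.29), Slc1a2 (0.26) and Itm2c (0.26) for H2-K1. All are weak, and of the 15 genes at ranks 1 to 5 for the 3 members, 8 remained without the 5 cells with low sums. The other 7 members were not ranked.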

How the data were processed

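Single cells were sequenced with Smart-seq2. Alignment and quantification tools listed in the submitters' processing notes are STAR (2.4.0g1) and RSEM (1.2.18), with mm10 as the build. Strand use and the gene annotation are not given in the sources used here. The deposited values are TPM per gene and cell, as the authors made them, and TPM keeps no read depth. Each of the 150 cells was rescaled to a sum of 1000000 TPM, since 5 cells had low deposited sums. Group means were compared as log2 of mean TPM with a pseudocount of 1 added, and a member was counted past 2-fold. The share over all genes used those at a mean of 1 TPM or more over the cells compared, and no such filter was applied to members. Detection meant 1 TPM or more, with exact (Clopper-Pearson) 95% intervals over cells that cover counting error only. No test was run, because each tissue is 1 pooled sample with no animal named. Correlations across cells are Spearman's and are descriptions. The members, pathway lists, marker lists and ranges were chosen with earlier results of these data known. Named genes were all members, at most 4 genes of each further list by mean level, and the 5 most alike genes for B2m, H2-D1 and H2-K1. Alternatives were the deposited values, other pseudocounts, filters and detection limits, mean of logs, aligned means, subsets of cells and left-out cells. Sequence sharing used GENCODE M21 transcripts (GRCm38), and promoters used RefSeq on GRCm38.p6, with no entry matched for Tap2. The 18 population libraries were not analysed here, and 1 gene of the regulator list is not reported by name. Calculations used Python 3.11.15, pandas 2.3.3, numpy 2.4.6, scipy 1.17.1 and matplotlib 3.10.9, and were tested on simulated data.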

Additional observations from a re-analysis of the deposited data

Results flagged for a closer look

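Among the 4 cortical cells, 1 cell stood far from the other 3 for 3 of the 10 genes. For H2-D1 the gap between the highest cell (192 TPM, cell 3) and the next was 0.997 of the whole range. For Psmb10 (36.3 TPM in cell 1, listed at 0 in the others) and Tap2 (0.27 TPM in cell 4, listed at 0 in the others) the gap was 1.0 of the range. Chance flags about 1 in 20 groups of normally spread values, and values that are mostly 0 are flagged more readily. The Tap2 value lies under the detection limit of 1 TPM.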

How the results depend on the processing

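No paired analysis was possible because the numbers in the sample names count picked cells and not shared animals. The log2 median of the members in cortex over SVZ was -1.75 with a pseudocount of 10, -5.33 with 0.1 and -1.23 by the mean of logs. In striatum over cortex it was 1.07, 4.11 and 0.41 under these settings and 1.23 with OGStr cells only. There the mean of logs left 3 members higher and 2 lower, and aligned means left 0 lower. Between ogp and ogp2, 3 members were higher by the mean of logs. Across the ribosomal range 3 members were lower with a pseudocount of 10. By the mean of logs 2 were higher and 1 lower, the median was -0.20 and Psmb9 reversed to 0.66. With ogp2 cells only, 2 were lower and the median was -0.43. The share of cells with 5 or more members was 69.2% at any value above 0, 64.7% in ogp and 44.6% in ogp2, and that of cells with B2m, H2-D1 and H2-K1 was 61.8% and 43.1%. H2-K1 without H2-D1 was at 78.4% at any value above 0, Psmb9 with Tap1 at 15.8% at 10 TPM, and the Psmb9 share at 6.56% as a mean over cells. Leaving out single cells moved the median from -4.54 to -3.40 in cortex over SVZ, from 1.39 to 3.81 in striatum over cortex, from -1.53 to -1.14 in striatum over SVZ and from -1.06 to -0.77 across the ribosomal range. Lower members then numbered 0 to 2 in striatum over cortex and 0 to 1 in ogp over ogp2. The causes were not tested. Of the other main results, 182 values under other settings and 130 with a cell left out stayed within 1.5 times or the counting interval. Direction was not part of that rule where the main difference was under 2-fold. The median in ogp over ogp2 was 0.15, was -0.008 with the deposited values and ran from -0.20 to 0.17 with cells left out. Settings that change only the filter on all genes are among the 182 and cannot move a member value. Read depth is unknown, and the 4 cortical cells limit every statement on the cortex.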
